A study of Homo sapiens with 18 samples.

Results

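The genes described here are 10 genes of ADP-ribose metabolism, read as rows of the count table whose Ensembl identifier maps to the symbols PARP1, PARP2, PARP3, PARP4, PARP9, PARP10, PARP12, PARP14, DTX3L and PARG. All 10 were found among the 35044 genes of the table, and all 10 were kept among the 18335 genes tested. RNA-seq had been performed on HCC1937-EV, BRCA1-mutated HCC1937 breast cancer cells carrying an empty vector, and on HCC1937-OE-BRCA1, the same line with wild-type BRCA1 overexpressed. Libraries were made from untreated cells of each line (0 h) and from cells exposed to the PARP inhibitor (PARPi) olaparib at 10 µmol/L for either 12 h or 24 h, 3 libraries for each of the 6 conditions and 18 in all. The sample labels give HCC1937 and breast cancer cells for every library, give olaparib even for the 0 h libraries and list a wild-type genotype for HCC1937-EV, so line and time were taken from the sample titles. No source used here says whether the 3 libraries of a condition came from separate cultures, so p-values measure the spread between these libraries, which may be technical. The dose, the vector and the mutation are given in the study's text.

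Poly(ADP-ribose) polymerases transfer ADP-ribose from NAD onto proteins and nucleic acids. PARP1 and PARP2 are activated by DNA breaks and build poly(ADP-ribose) chains, PARP3 acts at DNA breaks with mono(ADP-ribose), and these enzymes are the nuclear targets whose catalytic site olaparib occupies. PARP9, PARP10, PARP12 and PARP14 belong to the branch of the family known as interferon-stimulated genes: PARP9 forms a complex with the E3 ubiquitin ligase DTX3L, PARP10 and PARP12 are mono(ADP-ribosyl)transferases, and PARP14 carries macrodomains that bind ADP-ribose. PARP4 is the PARP of the cytoplasmic vault particle, and PARG is the glycohydrolase that takes poly(ADP-ribose) chains apart.

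Several facts of the libraries bear on every comparison of the lines. Total counts lay between 15081973 and 17571922 per library, and log levels correlated across genes at 0.981 to 0.991 within a condition, against 0.728 to 0.753 between the lines. BRCA1, the gene that separates the lines by design, stood at 118 ± 7.70 CPM (read counts scaled to a common library size; SD, n = 3) in untreated HCC1937-EV and 138 ± 24.0 in untreated HCC1937-OE-BRCA1, which did not pass the test (adjusted p = 0.0654, edgeR's quasi-likelihood test). It was not called at 12 h either (log2 fold change 0.16 ± 0.11 SE, adjusted p = 0.197) and was higher in HCC1937-OE-BRCA1 at 24 h (log2 fold change 0.77 ± 0.11 SE, adjusted p = 3.17e-06). Of 10 markers of basal-like breast epithelium, 10 had a mean of at least 1 CPM in the libraries labelled HCC1937-OE-BRCA1 and 4 in those labelled HCC1937-EV, with summed levels of 6824 to 10695 and 2614 to 3310 CPM. The 4 in HCC1937-EV were KRT8 (1683 to 2182 CPM), KRT18 (737 to 1068), EGFR (139 to 202) and KRT17 (1.86 to 5.97). EPCAM, KRT5 and KRT14 held 1, 8 and 3 counts over the 9 HCC1937-EV libraries. The 4 fibroblast markers summed to 96.8 to 153 CPM in HCC1937-EV and 6.59 to 12.3 in HCC1937-OE-BRCA1, the leukocyte markers in the table to 1.15 to 2.59 and 33.7 to 86.8, and the endothelial markers to 1.11 to 2.89 and 17.2 to 27.0. The libraries labelled HCC1937-EV therefore went against their label in a part of these markers. What BRCA1 and what other differences between the cells contributed to a line difference cannot be told apart.

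The levels of genes also followed GC content to a degree that differed between libraries. Across 9727 genes, the deviation of a library from the mean of its line correlated with GC content (Spearman's rho, with genes sharing a library and so not independent) at -0.667 to -0.276 in untreated HCC1937-EV, at -0.685, -0.289 and 0.728 in its 3 libraries at 12 h, and at 0.333 to 0.707 at 24 h. In untreated HCC1937-OE-BRCA1, replicate 1 stood apart at -0.689, with replicates 2 and 3 at 0.363 and 0.667. The 12 h libraries of this line lay between 0.261 and 0.669, and its 24 h libraries between -0.543 and -0.404. Among the 10 genes the GC content of the longest transcript ran from 42.4% in PARP14 and 43.0% in PARG to 57.1% in PARP3 and 66.9% in PARP10. Values after an offset for GC content and length, or ranges over fits that include it, are therefore given below for a part of the results.

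Compared per length of exon, the order of the genes changed between the lines. In untreated HCC1937-EV, PARP1 was highest at 83.3 to 86.7 CPM per kb of exon, followed by PARP4 at 22.0 to 23.7. PARP2, PARP12, PARP3, DTX3L and PARG came next, between 6.41 and 9.16 CPM per kb, and the libraries of PARP2 and PARP12, of PARP12 and PARP3, and of DTX3L and PARG overlapped. PARP9 (2.26 to 2.56), PARP10 (0.287 to 0.350) and PARP14 (at most 0.00592 CPM per kb) closed the order, each apart from the next. In untreated HCC1937-OE-BRCA1, PARP10 (49.7 to 80.8 CPM per kb) and PARP1 (61.8 to 63.7) overlapped at the top, DTX3L (37.0 to 46.2) and PARP14 (24.3 to 35.5) followed, and PARG was lowest at 2.88 to 4.07. At 24 h with olaparib in HCC1937-OE-BRCA1, PARP1 (67.1 to 71.5), DTX3L (65.2 to 71.1) and PARP14 (63.7 to 71.6 CPM per kb) overlapped, below PARP10 at 88.1 to 104.

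Summed over each group, the olaparib targets and the interferon-linked genes exchanged places between the lines. In untreated HCC1937-EV, PARP1, PARP2 and PARP3 together stood at 102 ± 1.27 CPM per kb (SD, n = 3), 68.2% ± 0.848 of the sum over the 10 genes, and the 5 interferon-linked genes at 18.2 ± 0.786, 12.1% ± 0.473 of it. In untreated HCC1937-OE-BRCA1 the targets stood at 78.6 ± 2.05 CPM per kb (29% ± 0.450) and the interferon-linked genes at 177 ± 4.55 (64.3% to 66.3% over the libraries). With olaparib the interferon-linked sum was 309 ± 5.28 CPM per kb at 12 h and 297 ± 4.75 at 24 h in HCC1937-OE-BRCA1, and 15.7 ± 1 and 15 ± 0.421 in HCC1937-EV. The sum of the targets lay between 73.7 and 107 CPM per kb in every one of the 18 libraries. These sums are a description and were given no test.

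**Figure D1:**
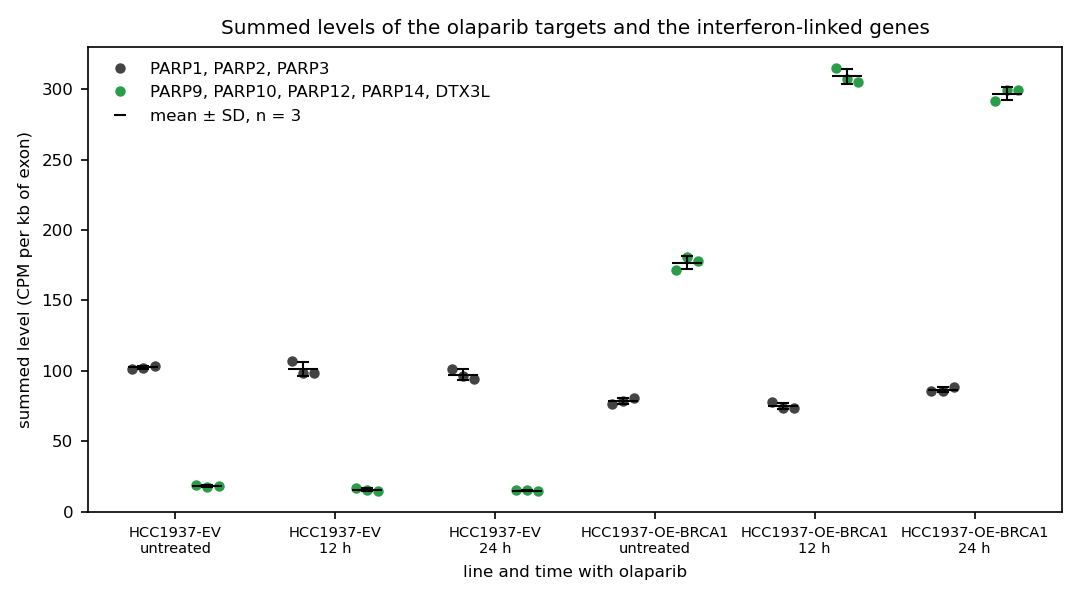
Summed level, in CPM per kb of exon, of PARP1, PARP2 and PARP3 (grey) and of PARP9, PARP10, PARP12, PARP14 and DTX3L (green) in each of the 18 libraries, by line and time with olaparib; points are libraries and bars the mean ± SD of 3. The green points lie below the grey ones in all 3 HCC1937-EV conditions, between 14.5 and 19.0, and above them in all 3 HCC1937-OE-BRCA1 conditions, between 172 and 315.

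edgeR called none of the olaparib targets after olaparib in either line, and DESeq2's Wald test called 1, PARP3 in HCC1937-EV at 24 h. PARP1 (chr1:226360691-226408079, minus strand; all gene positions are on GRCh38 from GENCODE 29) had levels of 597, 619 and 621 CPM in HCC1937-EV before treatment, 622, 584 and 578 at 12 h and 583, 559 and 539 at 24 h. The 24 h libraries all lay below the untreated ones, by a log2 fold change of -0.13 ± 0.07 SE (adjusted p = 0.256, edgeR). In HCC1937-OE-BRCA1 the values were 444, 443 and 457 CPM untreated, 444, 409 and 415 at 12 h, and 481, 485 and 512 at 24 h. Here the 24 h libraries all lay above the untreated ones, with a log2 fold change of 0.14 ± 0.07 (adjusted p = 0.280) and an approximate 95% interval of -0.01 to 0.28.

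PARP2, the second DNA-break-activated enzyme, lay within a narrow range in all 18 libraries. It was counted at 35.0 to 37.5 CPM in untreated HCC1937-EV, 35.0 to 41.7 at 12 h and 34.1 to 39.3 at 24 h, and at 33.5 to 39.2, 33.3 to 35.5 and 37.2 to 37.9 CPM in the same order in HCC1937-OE-BRCA1. PARP2 (chr14:20343582-20357905, plus strand) overlapped between treated and untreated libraries at every time, and its log2 fold changes against untreated ran from -0.06 to 0.08. PARP3 (chr3:51942345-51948867, plus strand) was counted at 25.6, 22.1 and 25.1 CPM in untreated HCC1937-EV and at 31.1, 28.8 and 30.4 at 24 h, without overlap, for a log2 fold change of 0.31 ± 0.12 SE that missed the threshold (adjusted p = 0.0776, edgeR). PARP3 was called there by DESeq2's Wald test (0.31, adjusted p = 0.0389) and with the compared conditions fitted alone (adjusted p = 0.0281), and the value was 0.05 ± 0.11 with the GC and length offset. In HCC1937-OE-BRCA1, PARP3 stood at 18.4, 21.6 and 24.6 CPM untreated and 27.0, 26.7 and 23.1 at 24 h, with overlapping libraries.

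**Figure D2:**
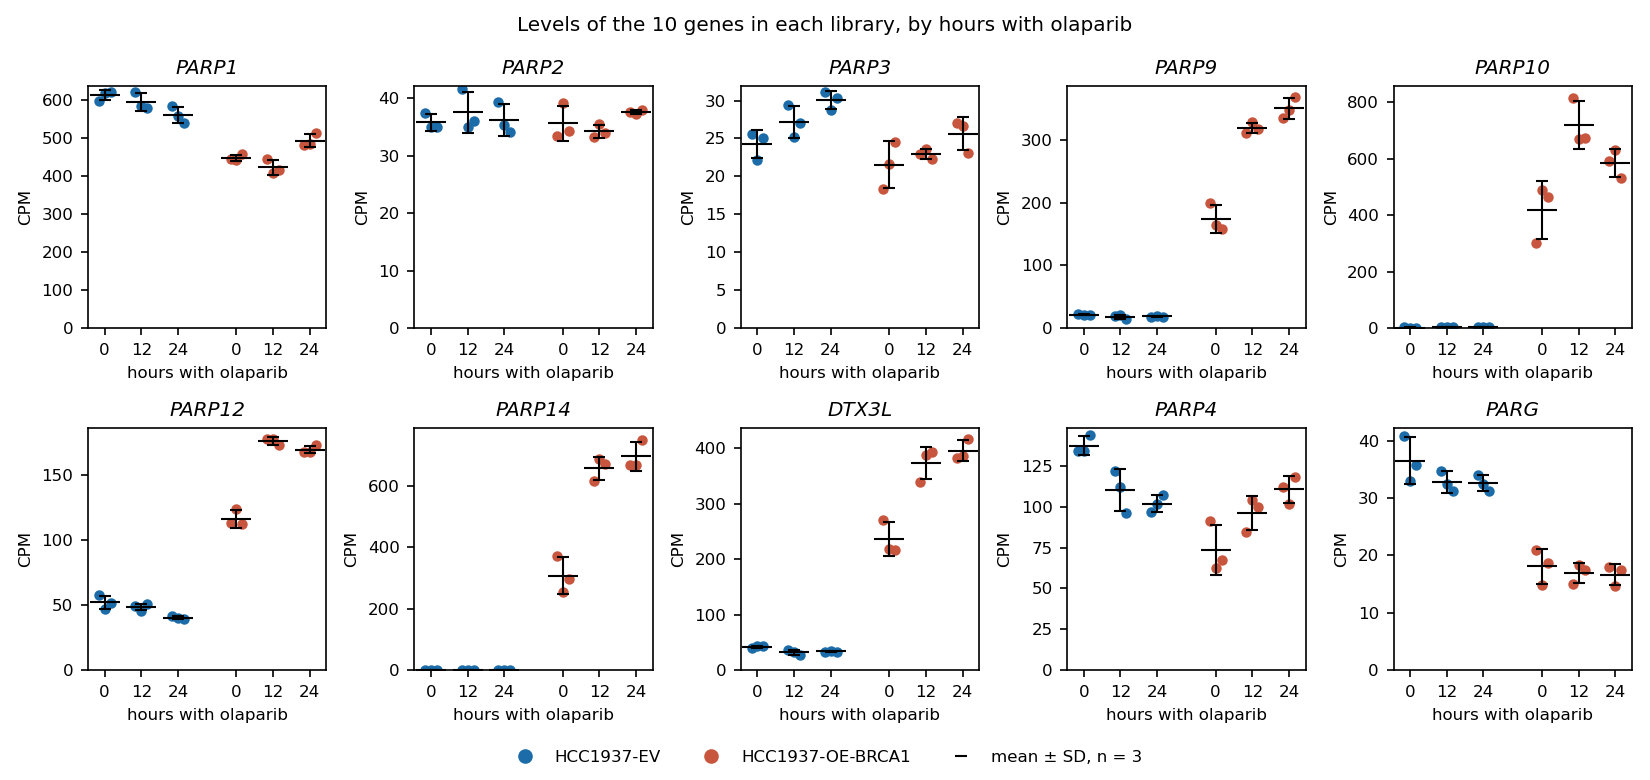
Level of each of the 10 genes, in CPM on linear axes that start at 0, in every library by hours with olaparib; blue points are HCC1937-EV, red points HCC1937-OE-BRCA1, and black bars the mean ± SD of 3 libraries. PARP9, PARP10, PARP12, PARP14 and DTX3L sit higher in every red library than in any blue one and rise from 0 h to 12 h in red, whereas PARP1 and PARG sit lower in red.

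All 5 interferon-linked genes rose in HCC1937-OE-BRCA1 with olaparib. At 12 h, 5 of 5 were called higher by edgeR, at an adjusted p under 0.05, beside 1.7% of all genes tested in that direction, and at 24 h 5 of 5 again, beside 4.71%. None of the 3 targets was called at either time, with 0 and 1 of them at an unadjusted p under 0.05, and DESeq2's Wald test called 0 at both times. At 12 h the 5 genes had a median log2 fold change of 0.78, the 3 targets of -0.06 and all genes tested of 0.00. At 24 h these medians were 0.74, 0.14 and 0.02. In 5 of 5 the treated libraries lay above the untreated ones without overlap at both times, which 9.21% and 14% of all genes tested also did in that direction.

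PARP14, a PARP with macrodomains, had the largest log2 fold change of the 5 at both times. It was counted at 373, 255 and 296 CPM untreated, 616, 687 and 672 at 12 h and 668, 670 and 752 at 24 h in HCC1937-OE-BRCA1. Every treated library lay far above the highest untreated one, with log2 fold changes of 1.09 ± 0.13 SE at 12 h (adjusted p = 1.86e-05, edgeR) and 1.18 ± 0.13 at 24 h (adjusted p = 4.4e-06). PARP14 (chr3:122680618-122730840, plus strand) was all but uncounted in HCC1937-EV, at 1 count in each of the 3 conditions as a whole, so no fold of treatment can be given there.

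PARP9 and DTX3L, the partners of the PARP9-DTX3L complex, start head to head on chromosome 3 and moved side by side. PARP9 (chr3:122527924-122564577, minus strand) went from 200, 164 and 159 CPM untreated to 312, 329 and 318 at 12 h and 336, 349 and 369 at 24 h in HCC1937-OE-BRCA1. Its log2 fold changes were 0.87 ± 0.11 SE at 12 h (adjusted p = 3.19e-05, edgeR) and 1.01 ± 0.11 at 24 h (adjusted p = 3.25e-06). DTX3L (chr3:122564238-122575203, plus strand) went from 271, 219 and 217 CPM to 340, 387 and 393 at 12 h and 383, 386 and 417 at 24 h, with log2 fold changes of 0.66 ± 0.11 (adjusted p = 0.000651) and 0.74 ± 0.11 (adjusted p = 0.00011). In both genes the untreated replicate 1 was the highest of its group and still lay below every treated library. The exons of the pair overlap on opposite strands over 217 bases, 2.4% of the exonic length of PARP9 and 3.7% of that of DTX3L, and where the counting did not use strand, which is not given in the sources used here, reads in that stretch cannot be told apart.

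In HCC1937-EV neither gene of the pair was called by edgeR, and their values with olaparib lay at or below the untreated ones. PARP9 stood at 22.9, 20.2 and 21.4 CPM untreated, 19.6, 20.2 and 14.5 at 12 h, and 18.3, 19.9 and 18.2 at 24 h, with log2 fold changes of -0.25 ± 0.12 SE and -0.19 ± 0.12 that did not pass the test (adjusted p = 0.309 and 0.274, edgeR). DTX3L stood at 40.4, 43.0 and 42.7 CPM, then 36.6, 32.4 and 26.9 at 12 h and 33.4, 34.5 and 32.8 at 24 h. Its treated libraries all lay below the untreated ones, with log2 fold changes of -0.39 ± 0.11 and -0.32 ± 0.11, short of the threshold at both times (adjusted p = 0.151 and 0.056). With DESeq2's Wald test the adjusted p of DTX3L was 0.0367 at 12 h and 0.0258 at 24 h, and without 12 h replicate 1 edgeR's was 0.032 at 12 h. With the GC and length offset the values were -0.11 ± 0.08 and 0.00 ± 0.08 for PARP9, and -0.33 ± 0.07 (adjusted p = 0.0416) and -0.20 ± 0.07 (adjusted p = 0.0687) for DTX3L, at 12 h and 24 h.

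PARP12, a mono(ADP-ribosyl)transferase with zinc fingers, rose at both times in HCC1937-OE-BRCA1 and fell at 24 h in HCC1937-EV. It stood at 113, 124 and 112 CPM untreated, 178, 178 and 173 at 12 h and 168, 168 and 173 at 24 h in HCC1937-OE-BRCA1, and the log2 fold changes were 0.60 ± 0.09 SE (adjusted p = 0.000177, edgeR) and 0.54 ± 0.09 (adjusted p = 0.000328). In HCC1937-EV, PARP12 (chr7:140023744-140063721, minus strand) went the other way at 24 h, from 57.5, 47.2 and 51.6 CPM to 41.8, 39.8 and 39.5 without overlap. It fell there by 0.37 on the log2 scale (SE 0.09, adjusted p = 0.0123), a call that was lost without untreated replicate 1 (adjusted p = 0.0857) and without 24 h replicate 2 (adjusted p = 0.0555). At 12 h its libraries overlapped with the untreated ones (-0.10 ± 0.09, adjusted p = 0.599).

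PARP10, a mono(ADP-ribosyl)transferase, was called higher in both lines, which of the 4 interferon-linked genes that could be read in HCC1937-EV held for PARP10 alone. In HCC1937-OE-BRCA1 it stood at 300, 488 and 463 CPM untreated, 816, 669 and 671 at 12 h and 593, 629 and 532 at 24 h. The untreated replicate 1 lay well below the other two, and the treated libraries lay above all 3, with log2 fold changes of 0.78 ± 0.14 SE at 12 h (adjusted p = 0.0021, edgeR) and 0.49 ± 0.14 at 24 h (adjusted p = 0.0353). Without that replicate they were 0.59 ± 0.11 (adjusted p = 0.00347) and 0.30 ± 0.11 (adjusted p = 0.0672), and the 24 h call was also lost without each of the 3 libraries at 24 h, with adjusted p between 0.0567 and 0.128. The GC and length offset gave 0.72 ± 0.09 and 0.70 ± 0.09 (adjusted p = 1.78e-05 and 1.59e-05).

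In HCC1937-EV, PARP10 was near the lower end of what was counted. It stood at 2.11, 1.73 and 1.79 CPM untreated, 3.14, 3.44 and 3.06 at 12 h and 5.08, 5.19 and 3.65 at 24 h. The groups did not overlap, and the rise passed the test at 24 h (log2 fold change 1.30 ± 0.23 SE, adjusted p = 0.00271, edgeR) but not at 12 h (0.77 ± 0.25, adjusted p = 0.159). With the GC and length offset the 24 h value was 0.90 ± 0.20 (adjusted p = 0.00534). PARP10 has the highest GC content of the 10 genes, and the GC trend of the HCC1937-EV libraries, given above, was negative untreated, mixed at 12 h and positive at 24 h. Its part in the rise beyond what the offset removes was not tested. PARP10 (chr8:143977153-144012772, minus strand) shares 324 exonic bases with GRINA and 197 with SPATC1 on the opposite strand. GRINA held 100169 counts and SPATC1 1265 over the 18 libraries, and PARP10 held 91, 149 and 235 in HCC1937-EV untreated, at 12 h and at 24 h. Where the counting did not use strand, reads in those stretches cannot be told apart, and their part in the rise was not tested.

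**Figure D3:**
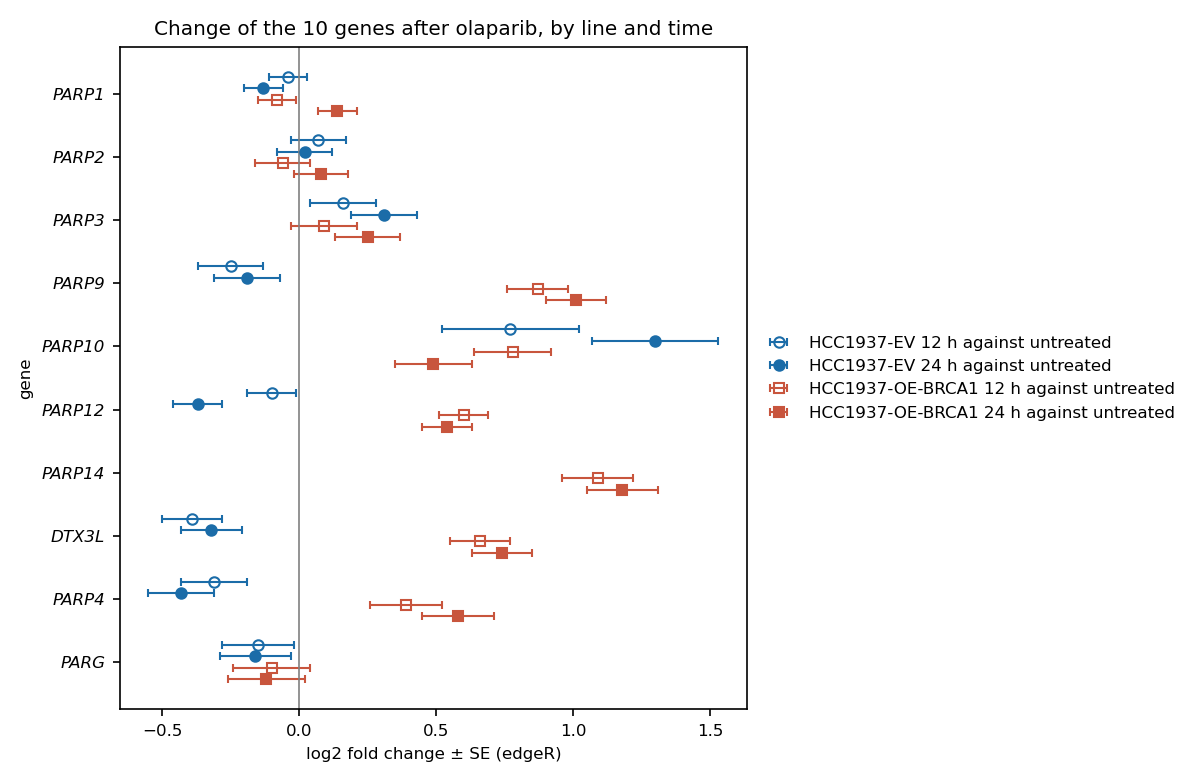
Log2 fold change against untreated, with its standard error (edgeR), of the 10 genes at 12 h (open symbols) and 24 h (filled symbols) in HCC1937-EV (blue circles) and HCC1937-OE-BRCA1 (red squares); PARP14 has no HCC1937-EV value. The red symbols of PARP9, PARP12, DTX3L and PARP4 lie to the right of 0 and the blue ones to the left, those of PARP10 lie to the right in both lines, and those of PARP1, PARP2 and PARG stay within 0.2 of 0.

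PARP4 and PARG differed from each other in their response. PARP4 (chr13:24420926-24512810, minus strand) stood at 134, 134 and 144 CPM in untreated HCC1937-EV, 122, 112 and 96.4 at 12 h and 96.6, 102 and 107 at 24 h. All treated libraries lay below the untreated ones, and PARP4 fell by 0.43 on the log2 scale at 24 h (SE 0.12, adjusted p = 0.0275, edgeR), a call kept only without 24 h replicate 3 (adjusted p = 0.0385) among the 6 fits that leave out 1 library, where adjusted p reached 0.102. In HCC1937-OE-BRCA1 it stood at 91.1, 62.3 and 67.6 CPM untreated, 84.5, 104 and 100 at 12 h and 112, 102 and 118 at 24 h. The 24 h libraries lay above all untreated ones, with a log2 fold change of 0.58 ± 0.13 (adjusted p = 0.00564). At 12 h the value was 0.39 ± 0.13 and was not called (adjusted p = 0.138). It was called without untreated replicate 1 (0.56 ± 0.11, adjusted p = 0.00692) and with the GC and length offset (0.37 ± 0.09, adjusted p = 0.00994). PARG (chr10:49818279-49970203, minus strand) overlapped between treated and untreated libraries in both lines at both times, at 31.2 to 40.9 CPM in HCC1937-EV and 14.6 to 20.9 in HCC1937-OE-BRCA1.

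Over the 9 members that could be read in HCC1937-EV, edgeR called 0 at 12 h, with 4 at an unadjusted p under 0.05 and 1 called by DESeq2's Wald test, beside 0.0436% of all genes tested called in either direction. At 24 h it called 3 (PARP10 higher, PARP12 and PARP4 lower), beside 13.7% of all genes tested, a share that was 2.45% without untreated replicate 1. Treated and untreated libraries did not overlap in 4 of 9 members at 12 h and 7 of 9 at 24 h, beside 19.7% and 39.8% of all genes. Between 12 h and 24 h, 0 of 9 were called in HCC1937-EV, beside 0.18% of all genes, and 0 of 10 in HCC1937-OE-BRCA1, beside 1.65%, with 2 members at an unadjusted p under 0.05 in each line. DESeq2's Wald test called 0 and 1 of them, the latter being PARP1 (log2 fold change 0.21, adjusted p = 0.00607). In HCC1937-OE-BRCA1 the 12 h and 24 h levels of the interferon-linked genes differed by log2 values between -0.30 (PARP10) and 0.14 (PARP9). Over 8 alternative fits, the GC and length offset among them, the PARP10 value ran from -0.33 to -0.02 and was called in 1. The comparisons with untreated share the untreated libraries, so the values at the 2 times are not independent of each other.

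The question of whether the lines responded differently was put to the interaction term of the same model, which takes the log2 fold change in HCC1937-OE-BRCA1 minus that in HCC1937-EV. At 12 h, 3 of 9 members were called higher, PARP9 (1.12 ± 0.16 SE, adjusted p = 0.00111, edgeR), DTX3L (1.06 ± 0.15, adjusted p = 0.0013) and PARP12 (0.71 ± 0.12, adjusted p = 0.00612), beside 0.376% of all genes tested in that direction. The call of PARP12 was lost when the compared conditions were fitted alone (adjusted p = 0.0708). PARP4 was not called at 12 h (0.70 ± 0.18, adjusted p = 0.0798), but was by DESeq2's Wald test (adjusted p = 0.0139), without a filter on low counts (0.69, adjusted p = 0.00657) and with the GC and length offset (0.61, adjusted p = 0.00659, and 0.0114 with a replicate block). It was also called without HCC1937-EV 12 h replicate 1 (adjusted p = 0.0428) and without untreated HCC1937-OE-BRCA1 replicate 1 (adjusted p = 0.00431). At 24 h, 4 of 9 were called higher, beside 8.16% of all genes, and 1 lower, beside 11.2%. The 4 were PARP9 (1.20 ± 0.16, adjusted p = 0.000123), DTX3L (1.07 ± 0.15, adjusted p = 0.000228), PARP4 (1.02 ± 0.18, adjusted p = 0.00118) and PARP12 (0.91 ± 0.12, adjusted p = 0.000136).

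PARP10 was the member called lower, since its log2 rise from a low level in HCC1937-EV was the larger one (difference -0.82 ± 0.27 SE, adjusted p = 0.0405, edgeR). With the GC and length offset this difference was -0.20 ± 0.22 (adjusted p = 0.612), and of the 12 fits that leave out 1 library it was called in 3, those without HCC1937-EV 24 h replicate 3, untreated HCC1937-OE-BRCA1 replicate 1 or HCC1937-OE-BRCA1 24 h replicate 2. None of the 3 targets was called for a line difference at 12 h or 24 h. By the unadjusted p, 0 of 3 passed 0.05 at 12 h and 1 of 3 at 24 h, PARP1 (0.26 ± 0.11, adjusted p = 0.0821), which DESeq2's Wald test called (adjusted p = 0.00724). PARP1 was also called with at least 10 counts in every library (adjusted p = 0.0426, edgeR), so in 2 of 8 alternative fits. Over these fits, the GC and length offset among them, its value ran from 0.14 to 0.27.

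Before any treatment, the interferon-linked genes were all higher in HCC1937-OE-BRCA1, and PARP1, PARP4 and PARG lower. edgeR called 5 of 10 members higher, beside 39.4% of all genes tested, and 3 of 10 lower, beside 33.3%. PARP9 was 8.11-fold higher (log2 fold change 3.02 ± 0.12 SE, adjusted p = 2.94e-15), DTX3L 5.61-fold (2.49 ± 0.11, adjusted p = 3.19e-14), PARP12 2.23-fold (1.16 ± 0.09, adjusted p = 1.46e-10) and PARP10 221-fold (7.79 ± 0.21, adjusted p = 6.26e-18). PARP14 held 14906 counts in the 3 untreated HCC1937-OE-BRCA1 libraries and 1 count in the 3 untreated HCC1937-EV libraries, a ratio of 14949 with an exact 95% counting interval of 2683 to 590493. The median log2 fold change of all genes was 0.11 in this comparison, 0.08 at 12 h and 0.12 at 24 h.

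PARP1 was 0.732-fold (-0.45 ± 0.07, adjusted p = 1.64e-05, edgeR), PARP4 0.537-fold (-0.90 ± 0.13, adjusted p = 1.81e-06) and PARG 0.496-fold (-1.01 ± 0.13, adjusted p = 7.22e-07) in untreated HCC1937-OE-BRCA1 relative to HCC1937-EV. PARG, at 40.9, 32.9 and 35.7 CPM against 20.9, 14.8 and 18.6, kept this difference at 12 h (-0.96 ± 0.13) and 24 h (-0.97 ± 0.13). PARP2 was not called at any time, and PARP3 was not called either, although its value was -0.31 ± 0.11 (adjusted p = 0.0175) in the untreated lines with the GC and length offset. PARP1 stayed lower at 12 h (-0.49 ± 0.07, adjusted p = 5.35e-06), and at 24 h the difference was -0.19 ± 0.07 (adjusted p = 0.0304), which was not called with DESeq2's size factors (-0.15, adjusted p = 0.0778). That call was also lost without replicate 1 or replicate 2 of either line at 24 h, with adjusted p between 0.0676 and 0.105. PARP4 was not called at 12 h (-0.19 ± 0.12, adjusted p = 0.169) or at 24 h (0.12 ± 0.12, adjusted p = 0.386).

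With olaparib the interferon-linked genes were again higher in HCC1937-OE-BRCA1. At 12 h 5 of 10 members were called higher, beside 38.8% of all genes tested, and 2 lower, beside 34.1%, and at 24 h 5 higher, beside 39.9%, and 2 lower, beside 34%. At 24 h PARP9 was 18.7-fold, DTX3L 11.8-fold, PARP12 4.2-fold and PARP10 126-fold higher in HCC1937-OE-BRCA1, with log2 fold changes of 4.22 ± 0.12, 3.56 ± 0.12, 2.07 ± 0.09 and 6.97 ± 0.19 SE. The fold of PARP10 had been 223 at 12 h. PARP14 held 34055 counts against 1 at 24 h.

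PARP9, DTX3L and PARP14 lie close together on chromosome 3, among genes that differed less between the lines or in the other direction, apart from CSTA. Within 200 kb to either side 16 genes were in the table, and PARP14 starts 116.4 kb beyond DTX3L. KPNA1, which neighbours PARP9, and HSPBAP1, which neighbours PARP14, differed between the untreated lines by log2 values of -0.09 (adjusted p = 0.36, edgeR) and -0.24 (adjusted p = 0.208). PARP15, a further PARP between DTX3L and PARP14, had 0 counts in the untreated libraries of both lines, which allows up to 3 counts per group. CSTA, a cystatin of squamous epithelium at the far end, was higher in HCC1937-OE-BRCA1 (5 and 285 counts in the 3 untreated libraries of the lines), and FAM162A lower (-1.11, adjusted p = 9.12e-07). With olaparib in HCC1937-OE-BRCA1, none of the tested neighbours was called at 12 h or 24 h (lowest adjusted p = 0.108 and 0.0572).

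**Figure D4:**
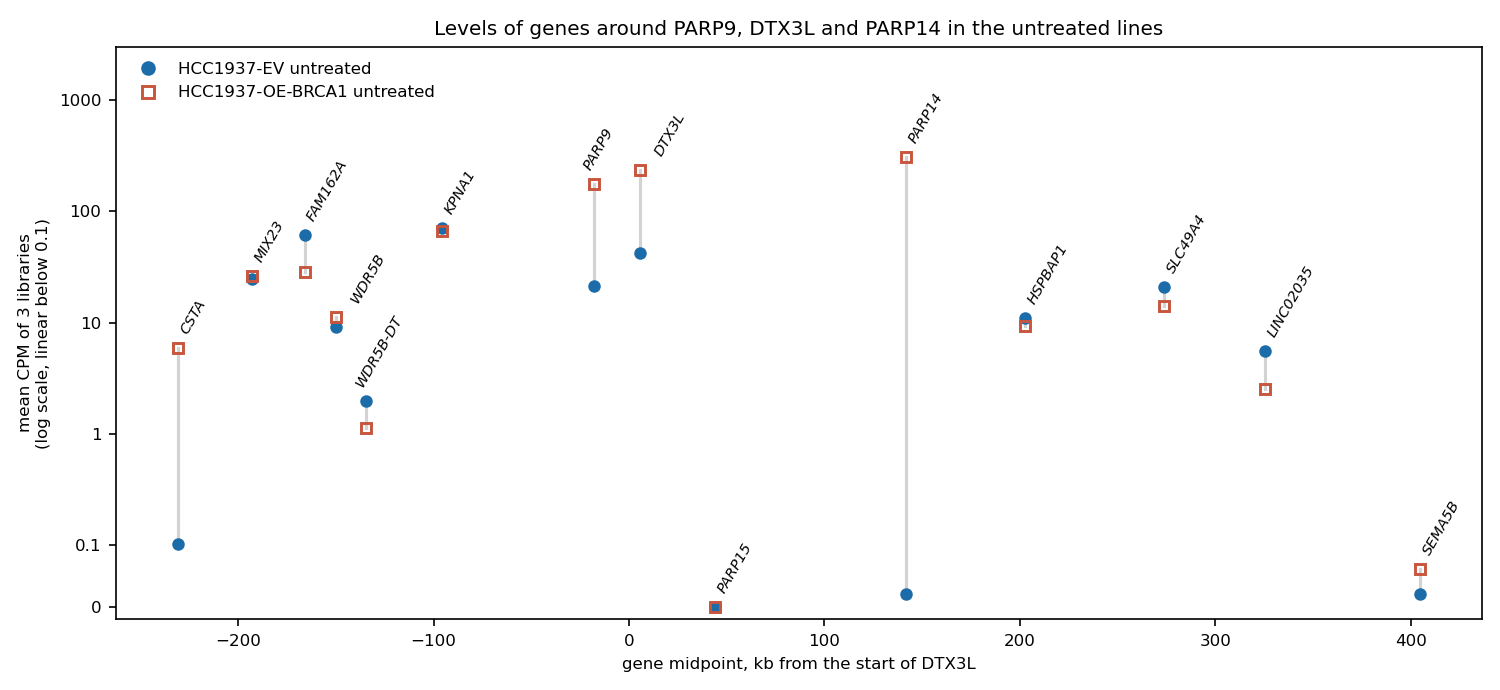
Mean CPM of 3 untreated libraries, on a log axis that is linear below 0.1, for the genes with a symbol around PARP9, DTX3L and PARP14, placed by the distance of the gene's midpoint from the start of DTX3L in kb; blue circles are HCC1937-EV and red squares HCC1937-OE-BRCA1. PARP9, DTX3L and PARP14 lie far apart between the lines (21.5 and 175, 42.0 and 236, 0.0207 and 308 CPM), whereas KPNA1 and HSPBAP1 nearly coincide.

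The promoters of interferon-linked genes are shown because these genes rose together in HCC1937-OE-BRCA1, though not in HCC1937-EV. Interferon signals also act through a known sequence, the interferon-stimulated response element (ISRE). RefSeq windows of 250 bases before to 50 after the start (GRCh38.p14) were at hand for 8 of the 10 genes, and not for PARP10 and PARP4. The core GAAANNGAAA, searched on both strands, was found in the windows of PARP9, DTX3L, PARP12 and PARP14, and in 3.57% of all 35116 windows. It was not found in the windows of PARP1, PARP2, PARP3 and PARG or in the other of 2 PARP9 windows. PARP9 and DTX3L share the same 10 bases, at chr3:122564332-122564341, read on opposite strands. The core of the gamma-activated site, TTCNNNGAA, which overlaps none of these matches, was in 7.66% of all windows and in those of PARP14 and PARP2. Each match is printed on the strand of its gene with 10 bases to either side and the core or its reverse complement in capitals, beside the 30 bases before the start of PARP1, which hold no core.
DTX3L (chr3:122564322-122564351, plus strand): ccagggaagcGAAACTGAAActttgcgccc
PARP14 (chr3:122680800-122680829, plus strand): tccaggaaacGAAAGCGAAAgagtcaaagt
PARP12 (chr7:140062942-140062971, minus strand): ccggggccgcTTTCGGTTTCgtttcccgcc
PARP1 (chr1:226408094-226408123, minus strand): gttccgtgggcgttcccgcggccaggcatc
A match is a description of letters and no evidence of binding, and a window without one says nothing about the factor.

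STAT2, a transcription factor that carries interferon signals to the ISRE with IRF9, moved with the interferon-linked genes in HCC1937-OE-BRCA1. STAT2 rose from 62.8 to 69.4 CPM untreated to 166 to 169 at 12 h and 154 to 167 at 24 h (log2 fold changes 1.33 ± 0.08 and 1.28 ± 0.08 SE, adjusted p = 2.75e-09 and 2.77e-09, edgeR). In HCC1937-EV it was not called at 12 h or 24 h, at means of 38.7 to 41.8 CPM. IRF9 was low in both lines, at means of at most 0.302 CPM in HCC1937-EV and 1.66 in HCC1937-OE-BRCA1, and was not called after olaparib. Of 24 tested genes of an interferon-response list, which holds STAT2 and IRF9, edgeR called 13 higher at 12 h and 14 at 24 h in HCC1937-OE-BRCA1, beside 1.7% and 4.71% of all genes, and 0 lower. In HCC1937-EV 0 were called at 12 h (6 at an unadjusted p under 0.05 and 1 by DESeq2), and 6 higher and 1 lower at 24 h, beside 13.7% of all genes in either direction.

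Genes whose levels ran like those of PARP9 and PARP1 were found by the correlation of log2 CPM over the 18 libraries after the mean of each line was taken off, among 10007 genes with a mean of at least 10 CPM. For PARP9 the most alike included SAMD9, an antiviral restriction factor (Pearson's r = 0.954), and DTX3L (0.950). For PARP1 the 3 most alike were the proteasome subunit PSMD11 (0.850), MSANTD3 (0.820) and the proteasome subunit PSMD6 (0.812). The points share libraries, times and GC trend, and the values are a description.

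For the rest of the ADP-ribose pathway, the counts called with olaparib stand beside 0.0436% of all genes tested at 12 h and 13.7% at 24 h in HCC1937-EV, and 2.31% and 8.26% in HCC1937-OE-BRCA1. Values with the GC and length offset are not given for the genes of this pathway, and the part of the GC trend in their calls was not tested. Of 11 other ADP-ribosyltransferases tested (of 15 listed), 0 were called at 12 h in HCC1937-EV (6 at an unadjusted p under 0.05 and 1 by DESeq2) and 2 at 24 h, SIRT4 higher (log2 fold change 1.49 ± 0.39 SE, adjusted p = 0.0185, edgeR) and TNKS, a tankyrase, lower (-0.65 ± 0.21, adjusted p = 0.0459). In HCC1937-OE-BRCA1, ART3 was higher at 12 h (1.80 ± 0.33, adjusted p = 0.00358), and ZC3HAV1, the antiviral zinc-finger PARP13 (0.67 ± 0.12, adjusted p = 0.00159), and TIPARP (0.39 ± 0.10, adjusted p = 0.022) at 24 h. TIPARP also rose from 12 h to 24 h (0.40 ± 0.10, adjusted p = 0.0476). Of 19 ADP-ribose hydrolases and readers tested (of 20), 2 were called over all treatment comparisons, both in HCC1937-EV at 24 h, the macrodomain hydrolase MACROD1 (1.05 ± 0.15, adjusted p = 0.000498) and NUDT9, an ADP-ribose pyrophosphatase (0.39 ± 0.10, adjusted p = 0.0147).

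Among 10 genes of NAD synthesis tested (of 11), QPRT (1.10 ± 0.14, adjusted p = 0.000326, edgeR) and NAPRT (0.51 ± 0.15, adjusted p = 0.0328) were higher in HCC1937-EV at 24 h. NMRK1 (0.57 ± 0.12, adjusted p = 0.00646) and NAMPT, the enzyme that limits the salvage of nicotinamide (0.43 ± 0.13, adjusted p = 0.0378), were higher in HCC1937-OE-BRCA1 at 24 h, and NMRK1 also from 12 h to 24 h (0.61 ± 0.12, adjusted p = 0.0154). Of 20 genes of single-strand break repair, 3 were higher in HCC1937-EV at 24 h, the glycosylases MPG (0.81 ± 0.13) and NTHL1 (0.74 ± 0.21) and the ligase LIG1 (0.30 ± 0.09). Another 3 were higher in HCC1937-OE-BRCA1 at 24 h, PCNA (0.36 ± 0.10), LIG1 (0.35 ± 0.09) and UNG (0.29 ± 0.08), and the glycosylase NEIL3 rose there from 12 h to 24 h (0.53 ± 0.12). At 12 h edgeR called 0 genes of NAD synthesis and of single-strand break repair in either line. At an unadjusted p under 0.05 there were 4 and 3 in HCC1937-EV, with 1 of each called by DESeq2, and 0 and 2 in HCC1937-OE-BRCA1, with 0 called by DESeq2.

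For the line difference in the response, edgeR called 0 genes of these 4 lists at 12 h. At an unadjusted p under 0.05 there were 5 other ADP-ribosyltransferases, 1 of them called by DESeq2, 2 hydrolases and readers, 1 gene of NAD synthesis and 3 of single-strand break repair. At 24 h, MACROD1 (-1.41 ± 0.21, adjusted p = 0.000264, edgeR), NTHL1 (-1.40 ± 0.30, adjusted p = 0.00417), MPG (-0.98 ± 0.17, adjusted p = 0.0014) and NAPRT (-0.78 ± 0.22, adjusted p = 0.0162) had the more negative response in HCC1937-OE-BRCA1, as did SIRT6, NUDT9 and APEX1. ZC3HAV1 (0.86 ± 0.17, adjusted p = 0.00287), NAMPT (0.79 ± 0.18, adjusted p = 0.00533) and PARP16 (0.67 ± 0.22, adjusted p = 0.0376) had the more positive one, as did TIPARP, TNKS2, PCNA and UNG. PARP8 was called in this direction too (4.52 ± 1.38, adjusted p = 0.0304), with few counts in HCC1937-EV. These values are without the GC and length offset. The GC trend of the 24 h libraries, given above, was positive in HCC1937-EV and negative in HCC1937-OE-BRCA1. Its part in these line differences was not tested.

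Untreated, the lines differed in most genes of these lists, as in most genes tested (72.7% called in either direction). Of the other ADP-ribosyltransferases tested 5 were higher and 3 lower in HCC1937-OE-BRCA1, of the hydrolases and readers 12 and 3, of NAD synthesis 6 and 4, and of single-strand break repair 7 and 7, beside 39.4% of all genes higher and 33.3% lower. PARP8 held 1751 counts against 6, and PARP11 held 99 against 0, which makes it at least 33.1-fold higher (against 3 counts over the group). DTX1, a relative of DTX3L, was at least 82.6-fold higher (247 counts against 0), and DTX3 was higher by a ratio of 355 (708 counts against 2, exact 95% counting interval 97.9 to 2937). TNKS2 (-1.73 ± 0.14 SE), PARP16 (-1.73 ± 0.16) and LIG3 (-1.76 ± 0.11) were lower, as was QPRT, at 7 counts against 3334 in HCC1937-EV.

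Near copies of some members were in the table with reads of their own. PARGP1, a pseudogene of PARG, held 669 counts over the 9 HCC1937-EV libraries and 923 over the 9 HCC1937-OE-BRCA1 libraries, PARP1P1 held 26 and 10, and PARP4P2 held 5 and 1. How reads that fit both a gene and its copy were assigned is not given in the sources used here, so the levels of PARG carry that uncertainty in particular, at 7443 counts over the 18 libraries.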

How the data were processed

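RNA was extracted with TRIzol and libraries were prepared with the NEBNext Ultra II kit. The authors deposited whole-number read counts for each gene, and the submitters' processing notes name HISAT2, featureCounts, DESeq2 and GRCh38. The deposited counts of the 18 libraries were identical in the joint table and in the 18 single-library tables. The 10 genes and all lists were chosen with earlier results of these data known. Symbols were matched to 34966 identifiers. Counts were tested with edgeR 4.0.16 in R 4.3.3: TMM normalization, filterByExpr by condition, 1 quasi-likelihood model over 18 libraries, and Benjamini-Hochberg adjustment over 18335 genes. CPM use TMM library sizes, and CPM per kb divide by GENCODE 29 exonic length. Counting intervals and the floor of 3 counts cover counting error only. All 10 members were named, and from the pathway lists up to 3 called genes with the largest rise and fall. Likeness used log2(CPM + 0.5). The fit was tested on simulated counts. Alternatives were DESeq2 1.42.0 size factors and its Wald test, other count filters, the compared conditions alone, a replicate block, an offset for GC content and length, a minimum log2 fold change of 0.5, and each library left out. Some values of single genes are not reported here.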

Additional observations from a re-analysis of the deposited data

Results flagged for a closer look

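The response to olaparib differed between the lines, by the interaction term of edgeR's model (log2 fold change in HCC1937-OE-BRCA1 minus that in HCC1937-EV), for 3 members at 12 h and 5 at 24 h. At 12 h the differences were 1.12 for PARP9, 0.71 for PARP12 and 1.06 for DTX3L. At 24 h they were 1.20 for PARP9, -0.82 for PARP10, 0.91 for PARP12, 1.07 for DTX3L and 1.02 for PARP4. Those of PARP9, DTX3L and PARP12 kept their call in each of the 12 fits that leave out 1 library, at 12 h and at 24 h. That of PARP4 at 24 h was also kept in 12 of 12, and that of PARP10 in 3 of 12.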

How the results depend on the processing

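Whether the replicate numbers pair the libraries cannot be told. Deviations of libraries with the same number correlated between -0.591 and 0.718. For replicate 1, untreated HCC1937-EV correlated with HCC1937-EV at 12 h at 0.482 and with untreated HCC1937-OE-BRCA1 at 0.473. HCC1937-EV at 12 h and untreated HCC1937-OE-BRCA1 correlated at 0.718. Different numbers gave means of -0.088, -0.108 and -0.146 in these pairs of conditions. The value of -0.591 was that of replicate 1 in untreated and 12 h HCC1937-OE-BRCA1. No call of a member changed with a replicate block, where 5 members were still called in HCC1937-OE-BRCA1 at 12 h and 6 at 24 h. Counts of members called moved by over 1.5 times in 3 comparisons. In HCC1937-EV at 12 h, where 0 were called, 1 was with DESeq2's Wald test, 2 without a filter on low counts and 1 with the GC and length offset. In HCC1937-EV at 24 h, where 3 were, 5 were with DESeq2's Wald test and with the compared conditions alone, and 1 with a minimum absolute log2 fold change of 0.5. Between 12 h and 24 h in HCC1937-OE-BRCA1, where 0 were, 1 was with DESeq2's Wald test and 2 with the compared conditions alone. The cause was not tested. Leaving out 1 library, the counts ran from 0 to 1 in HCC1937-EV at 12 h and from 1 to 3 at 24 h, from 5 to 6 at both times in HCC1937-OE-BRCA1, were 0 between 12 h and 24 h in each line, 8, 7 and 6 to 7 between the lines untreated, at 12 h and at 24 h, and 3 to 4 and 4 to 5 for the line difference at 12 h and 24 h.

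Of 105 log2 fold changes of members, 23 changed sign in some fit. None of these was called, and none was over 0.10 in size in the fit reported. With the GC and length offset, also beside the replicate block, they were 0.03 and 0.02 (PARP1, HCC1937-EV at 12 h), -0.02 (PARP2, HCC1937-OE-BRCA1 at 24 h), 0.06 (PARG, HCC1937-EV, 24 h against 12 h), 0.03, -0.04 and -0.05, and -0.01 (PARP12, PARP14 and DTX3L, HCC1937-OE-BRCA1, 24 h against 12 h), 0.06 and -0.03 (PARP2 between the lines untreated and at 24 h), 0.02 (PARP3, line difference at 12 h), and -0.09, 0.26, and -0.20 and -0.21 (PARP2, PARP3 and PARG, line difference at 24 h). PARP2 between the untreated lines was also 0.03 with DESeq2's size factors and its Wald test, 0.05 with at least 10 counts in every library and 0.01 with the compared conditions alone, and PARG in the line difference at 24 h was -0.02 without a filter on low counts. Leaving out 1 library, the values that changed sign ran from -0.01 to 0.11 for PARP2 (HCC1937-EV at 12 h), from -0.04 to 0.05 for PARP2 (HCC1937-EV at 24 h), from -0.11 to 0.02 for PARP2, -0.02 to 0.20 for PARP3, -0.22 to 0.01 for PARG (HCC1937-OE-BRCA1 at 12 h), from -0.11 to 0.03 for PARP2, -0.08 to 0.13 for PARP9, -0.03 to 0.18 for DTX3L, -0.04 to 0.03 for PARG (HCC1937-EV, 24 h against 12 h), from -0.11 to 0.06 for PARG (HCC1937-OE-BRCA1, 24 h against 12 h), from -0.08 to 0.04 for PARP2 (untreated lines), from -0.18 to 0.03 for PARP3, -0.18 to 0.14 for PARP10, -0.07 to 0.17 for PARG (line difference at 12 h), from -0.17 to 0.04 for PARP3, -0.09 to 0.16 for PARG (line difference at 24 h).

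The share of all genes called also moved, in HCC1937-OE-BRCA1 at 12 h from 2.31% to 6.54% and at 24 h from 8.26% to 17.2% with the GC and length offset, and in HCC1937-EV at 24 h from 13.7% to 2.45% without untreated replicate 1. The 3 libraries per condition and the low counts of PARP10, PARP14 and IRF9 in HCC1937-EV limit what can be read there.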
